A study of Mus musculus with 16 samples.

Results

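The genes of the cytosolic ribosomal proteins were followed in macrophages that had been given or denied serine and exposed or not to lipopolysaccharide (LPS). Members were all protein-coding genes whose mouse symbol begins with Rps or Rpl followed by a number (with an optional a, x, y or l and further digits), together with Rpsa, Rplp0, Rplp1 and Rplp2. They came to 83 of the 43430 genes in the count table, of which 42462 had a symbol, and 5 further symbols of this form were dropped because they are not protein-coding. Of the 83 members 80 passed the filter on low counts, 32 of the small and 48 of the large subunit. The other 3 were the tissue-restricted paralogs Rpl3l, Rpl39l and Rpl10l, with 4, 41 and 0 counts over all 16 libraries. A count of 0 there allows a level of up to 0.0269 CPM, counting error only. The ribosomal protein genes Fau and Rpl36al and the ribosome-bound scaffold gene Rack1 lie outside the naming rule and were kept in a separate list.

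The cells were bone marrow-derived macrophages of C57BL/6J mice, grown from marrow with macrophage colony-stimulating factor and then moved to minimal essential medium. Each group had 4 libraries. Dropout LPS cells were in medium without serine and received 100 ng/mL LPS, control LPS cells received the same dose in complete medium, dropout untreated cells had neither serine nor LPS, and control untreated cells had complete medium alone. RNA was taken 4 h after LPS. All groups share the strain, the culture in colony-stimulating factor and the change of medium. No animal or culture is named for a replicate number, so p-values measure the spread between libraries, which may be technical. Replicate 1 of each group differed from the others in sex-linked counts, as given below, so the spread is not only technical there. The main test does not use the pairing by replicate number, and fits with that number as a block are given as alternatives.

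Each ribosome carries one copy of most of these proteins, wrapped around the ribosomal RNA of a small subunit that decodes the mRNA and a large subunit that forms peptide bonds. Their genes are expressed in every cell, and their mRNAs begin with a run of pyrimidines, the 5′ terminal oligopyrimidine motif, through which the kinase mTORC1 and the RNA-binding protein Larp1 control translation of the whole set. Many of the genes have processed pseudogenes and host small nucleolar RNAs in their introns, and unassembled Rpl5 and Rpl11 can bind Mdm2 and so raise p53.

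Promoters of 5 members named below are shown because each holds one of the motifs that recur at the start sites of these genes. The windows are from the RefSeq annotation on GRCm38.p6 and run from 100 bases before the annotated start to 30 bases after it, 5′ to 3′ on the transcribed strand, with the motif matches in capitals.
Rps27 (chr3:90213619-90213748, minus strand): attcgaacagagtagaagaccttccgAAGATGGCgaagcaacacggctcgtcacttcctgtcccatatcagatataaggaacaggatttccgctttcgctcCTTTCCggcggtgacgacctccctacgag
Rpl35a (chr16:33056382-33056511, plus strand): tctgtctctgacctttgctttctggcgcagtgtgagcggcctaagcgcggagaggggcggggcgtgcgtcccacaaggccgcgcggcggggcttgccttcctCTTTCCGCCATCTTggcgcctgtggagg
Rps6 (chr4:86857338-86857467, minus strand): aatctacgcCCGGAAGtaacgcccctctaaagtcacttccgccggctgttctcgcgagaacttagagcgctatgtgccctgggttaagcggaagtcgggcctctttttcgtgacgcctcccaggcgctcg
Rpl19 (chr11:98026610-98026739, plus strand): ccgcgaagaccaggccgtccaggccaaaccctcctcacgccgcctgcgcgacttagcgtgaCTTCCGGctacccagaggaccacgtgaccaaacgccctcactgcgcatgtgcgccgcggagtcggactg
Rpl7l1 (chr17:46782627-46782756, minus strand): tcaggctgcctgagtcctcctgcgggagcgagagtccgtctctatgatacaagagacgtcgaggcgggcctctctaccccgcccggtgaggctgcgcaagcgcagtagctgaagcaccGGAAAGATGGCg
In these lines AAGATGGC and its reverse complement GCCATCTT are the core bound by the factor YY1, and CCGGAAG and its reverse complement CTTCCGG are the core of ETS-family sites. CTTTCC is a short pyrimidine run, while its reverse complement GGAAAG, as in Rpl7l1, is a run of purines on the transcribed strand. Rps27 and Rpl35a, on chromosomes 3 and 16, carry CTTTCC at the start itself, and in Rpl7l1 the GGAAAG and AAGATGGC matches overlap. Full windows of 300 bases, 250 before and 50 after the start, were found for 63 of the 83 members, 75 windows in all. On either strand CTTTCC was in 49.3% of the 75 windows and in 26.6% of all 32851 promoter windows of the table. CCGGAAG was in 36% of member windows and in 8.86% of all windows, and AAGATGGC in 10.7% and in 2.75%. CTTTCC on the transcribed strand, beginning within 10 bases of the start, was in 10 member windows (13.3%) and in 1.09% of all. These are letter matches, with no measurement of binding.

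One library stood apart, and member results that use it are given with and without it. Dropout untreated library 4 had 2871477 counts assigned to genes and 12900 genes detected, while the other 15 libraries had 5760734 to 10043362 counts and 14000 to 16031 genes. Members held 5.47% of its counts (95% exact binomial interval 5.44% to 5.496%, counting error only), against 1.54%, 1.92% and 1.96% in libraries 1 to 3 of its group. Its level exceeded the mean of those 3 for 79 of the 80 tested members, by a median log2 difference of 1.79. The highest difference was 3.59, for Rpl37a, and 62 members were more than 2-fold higher. Libraries were scaled by TMM, the trimmed mean of M values, and CPM below are counts scaled to a common library size in this way.

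The excess in that library followed transcript length among genes that are no members. Among 10880 such genes, those in the shortest 10% (up to 1418 bases) lay 1.07 higher (median log2) than in the other 3 libraries of the group and those in the longest 10% stood at -0.94, with the 8 bins between in order. In the 12 libraries of the other groups no bin lay further than 0.12 from 0. Within that bound control LPS library 1 stood at -0.095 in the shortest bin and 0.11 in the longest. Library 1 stood at -0.086 and 0.113 in dropout LPS and at -0.019 and 0.089 in control untreated cells. Control LPS library 3 ran the other way, from 0.116 to -0.066. Of the 80 members 54 fell in the shortest 10%, with a median transcript of 1100 bases. Across the members themselves the excess and the length had a Spearman rho of -0.12, a description over 80 genes that share 1 library. Genes of mitochondrial ribosomal proteins were also higher there (median 0.91, 71 of 76 above 0), as were translation factors with oligopyrimidine mRNAs (0.82, 11 of 14) and the ribosome genes outside the rule (1.65, 4 of 4). The median was 0.11 for 32 ribosome biogenesis genes, -0.41 for 8 macrophage markers and -0.12 for all genes tested. The share of counts from mitochondrially encoded genes was 0.660% in that library and 0.633% to 0.709% in the rest of its group. The part of length or RNA quality in the result was not tested.

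**Figure D1:**
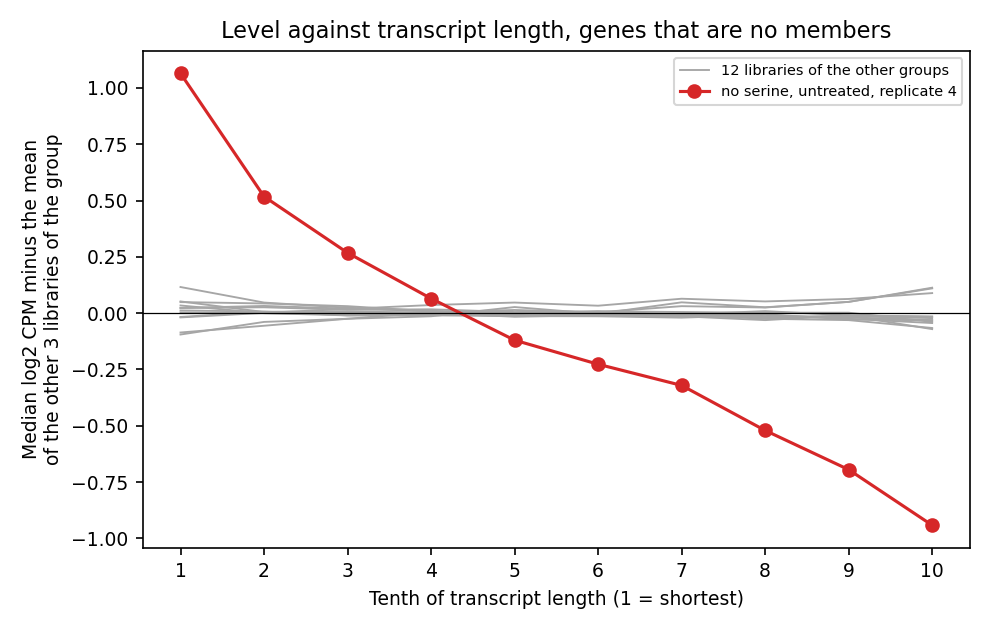
Median log2 CPM difference of each library from the mean of the other 3 libraries of its group (y axis) for genes that are no members, in 10 bins of transcript length (x axis, 1 is the shortest). The red line, dropout untreated library 4, falls from 1.07 to -0.94, while the 12 grey lines of the other groups stay within 0.12 of 0.

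Macrophage markers were abundant in every group. The sum of Csf1r, Adgre1, Cd68, Itgam, Lyz2, Fcgr1, Mertk and Cd14 was 20608 to 26601 CPM in dropout LPS, 21618 to 28263 in control LPS, 16267 to 27076 in dropout untreated and 17112 to 22353 in control untreated libraries. The 8 neutrophil markers summed to 15.4 to 92.2, 10.9 to 108.06, 13.7 to 145 and 10.8 to 113 CPM in the same order, and the 5 stromal markers to at most 29.7 CPM. The 5 dendritic cell markers summed to 9.55 to 12.5 CPM in dropout LPS and 12.8 to 16.4 in control LPS libraries, against 2.02 to 2.57 in dropout untreated and 1.39 to 2.63 in control untreated libraries. The 5 B and plasma cell markers reached at most 3.04 CPM, and the 5 erythroid and 5 T and NK cell markers at most 0.307 and 0.251 CPM, with 5 of 5 T and NK markers at 0 in both LPS groups. Of the 5 dendritic markers 1 could be tested with 16 libraries and 3 with 15, and those rose with LPS in both media. The other dendritic markers did not pass the filter on low counts. Among the macrophage markers Cd14, Fcgr1 and Adgre1 rose and Mertk fell with LPS in both media, with 16 and with 15 libraries. The B and plasma cell marker Cd79b stood at -1.35 without serine and -2.08 with it (adjusted p = 0.0389 and 0.00331, edgeR, 16 libraries), or -1.12 and -2.08 with 15 libraries (adjusted p = 0.0702 and 0.00169). The part of these markers in the results below was not tested. In bulk RNA, fewer cells of a type and less RNA per cell cannot be told apart.

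The share of all gene counts held by members was lower with LPS in both media, with no overlap between LPS and untreated libraries of the same medium. It averaged 1.43% ± 0.142 in dropout LPS cells and 1.45% ± 0.159 in control LPS cells (SD, n = 4 each). In untreated cells it averaged 2.72% ± 1.84 without serine (n = 4), or 1.81% ± 0.233 without library 4 (n = 3), and 1.87% ± 0.175 with serine (n = 4). On the TMM scale the order turned round. The members summed to 17680 ± 2051.5 CPM in dropout LPS and 17772 ± 2239 CPM in control LPS cells, against 24062 ± 19335 CPM in dropout untreated cells, 14424 ± 1842 CPM without library 4, and 14860 ± 1445 CPM in control untreated cells. TMM factors were 0.781 to 0.861 in the LPS libraries and 1.24 to 1.27 in the untreated ones other than library 4 (1.03), so that LPS directions rest on the scaling. TMM set the median fold change of all genes at -0.12 (log2) in the LPS comparison without serine and -0.03 in that with serine, and total counts set it at -0.69 and -0.64. Members lay above that median by 0.28 on either scale with serine, and without serine by 0.35 on either scale once library 4 was left out. With library 4 they lay below it without serine, at a difference of -0.23 on TMM and -0.16 on total counts.

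**Figure D2:**
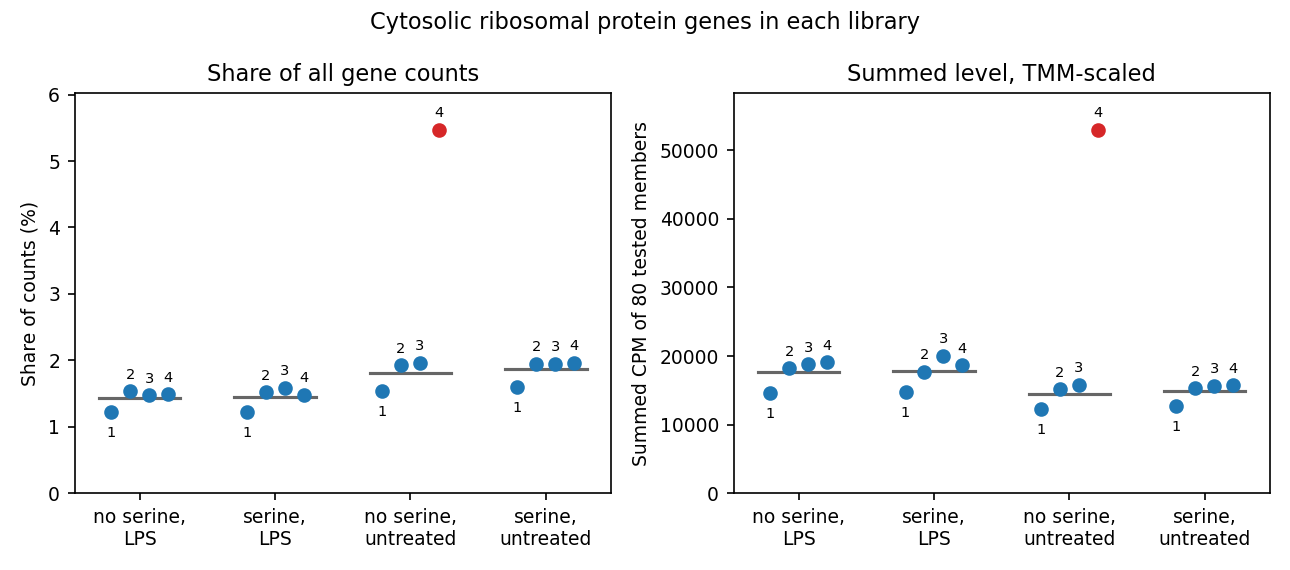
Members' share of all gene counts in percent (left) and their summed TMM-scaled CPM (right) in each library, with replicate numbers beside the points. Grey bars are group means over the blue points. The red point is dropout untreated library 4, at 5.47% and 52977 CPM, and LPS libraries lie below the other untreated ones in mean share but above them in mean summed CPM.

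Replicate 1 was the lowest library of every group for nearly all members. It lay below the other 3 libraries for 76 members in dropout LPS, 77 in control LPS, 78 in dropout untreated and 76 in control untreated cells, of 80 each. The same count was not made over all genes, so whether this is particular to the members was not tested. Its shares of counts were 1.22% and 1.22% in the LPS groups without and with serine, 1.54% in dropout untreated and 1.60% in control untreated cells. Xist had 0 counts in replicate 1 of each group, where Y-linked genes had 1184 to 2391, against 351 to 1477 and at most 1 elsewhere, so that sex and replicate 1 cannot be told apart. Over the 15 libraries the median Pearson correlation between the log2 levels of 2 members was 0.909, and over 16 it was 0.947, a description over pairs that share all libraries and their scaling.

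**Figure D3:**
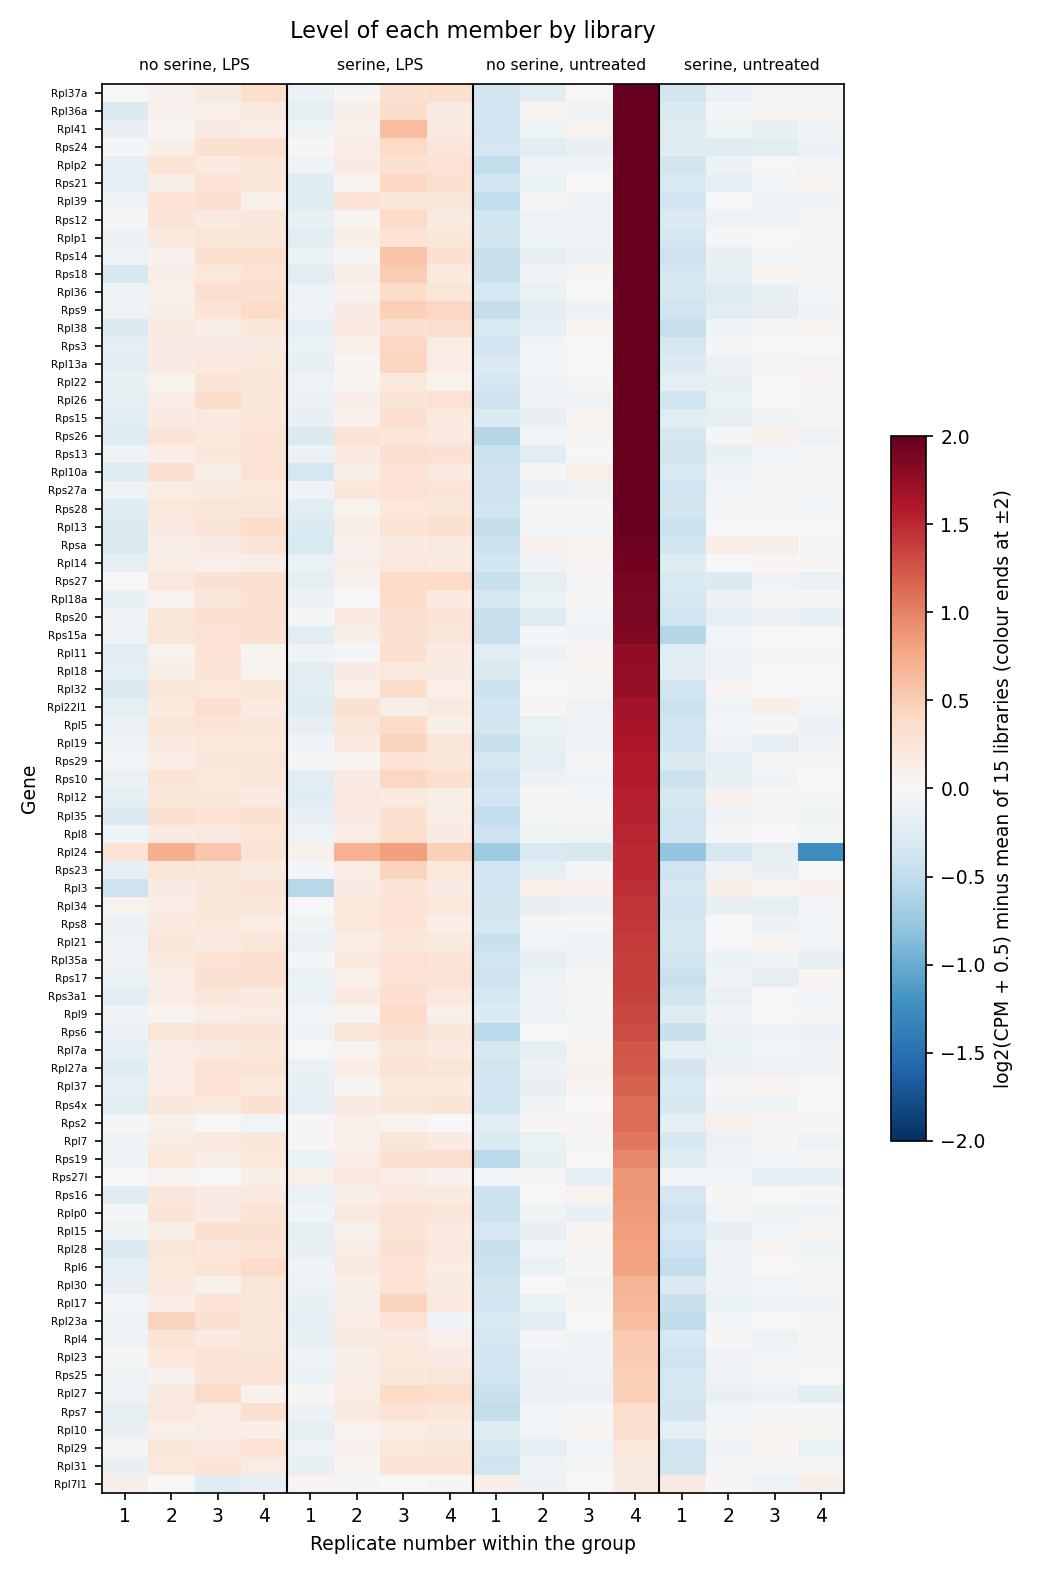
Level of 78 of the 80 tested members (rows, sorted by their level in dropout untreated library 4) in 16 libraries (columns), as log2(CPM + 0.5) minus the gene's mean over the other 15 libraries. Colours end at 2 on each side. Library 4 of the dropout untreated group is dark red for most members, and the first library of each group is the bluest of its block. LPS columns look redder on this TMM scale, and the order turns round on total counts.

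Levels differed widely between members. Per kilobase of the transcript with the longest coding part, control untreated cells had 802 CPM for Rplp1, 464 for Rplp0 and 455 for Rpl10, and 8.78 for the paralog Rpl22l1 and 3.35 for Rpl24. Rpl24 had 9 to 40 counts per library, and the gene model Gm28037 overlaps it on the same strand, so its value is uncertain. Overlapping genes, often small nucleolar RNAs, were annotated for 45 members and pseudogenes named after the gene for 56. Strand is not kept by the library kit, and how reads shared between such copies were counted is not given in the sources used here.

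LPS in complete medium moved few members past the threshold when all libraries were fitted, and all of those were higher on the TMM scale. With 16 libraries Rpl24 and Rpl27 rose and 0 members fell (quasi-likelihood F test of edgeR, p adjusted by Benjamini-Hochberg over 11004 genes, threshold 0.05). The 2 higher calls are 2.5% of the members, while 27.6% of all genes tested were called higher and 28.2% lower. At an unadjusted p under 0.05 the edgeR test also had 0 members lower, beside 6604 of 11004 genes in either direction. DESeq2 called 2 members in all, beside 28.7% of genes higher and 28.3% lower. Without dropout untreated library 4, which is in neither group but sets part of the shared spread, 31 members (38.8%) were higher and 0 lower, with 33.1% and 33.9% of 11107 genes. The median member fold change was 0.25 (log2) in both fits, against -0.03 for all genes, and in the fit of 15 libraries the share of members called higher stood near that of all genes. With the replicate number as a block 6 were higher with 16 libraries (29.7% of all genes), and 73 of 80 (91.2%) without library 4 (36.5%). On total counts the direction turned, with 0 higher and 16 lower, and 1 higher and 69 lower without library 4 (15.1% and 58.2%, and 17.2% and 65.4%, of all genes). Within replicate numbers 74 members were higher with LPS in all 4 pairs on the TMM scale (37% of all genes), and 78 were lower in all 4 on total counts (69% of all genes). All control LPS libraries lay above all control untreated ones for 12 of 80 members on the TMM scale (30.7% of all genes). On total counts they lay above for 0 members and below for 36 (15.7% and 60.7% of all genes). Groups without overlap named below are to be read beside these counts. The count of 2 became 0 without control untreated library 1 or 4 or control LPS library 3, and 1 without control LPS library 4.

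In the small subunit, whose proteins lie around the decoding site, 16 of 32 tested members were higher in the fit of 15 libraries, with a median of 0.28 (0 of 32 with 16 libraries), beside 33.1% of all genes called higher with 15 libraries and 27.6% with 16. Rps9 (chromosome 7, 3703993 to 3706901, plus strand), next to the mRNA entry channel, had 393, 457, 510.0 and 557 CPM in dropout LPS libraries 1 to 4, 399, 469.7, 583 and 560.1 CPM in control LPS libraries, 302, 363, 389 and 2035 CPM in dropout untreated libraries and 317, 361, 374 and 399 CPM in control untreated libraries. Within complete medium the lowest LPS library stood at 398.8 CPM and the highest untreated one at 398.6 CPM, so the ranges only just parted, and the log2 fold change, here and below with its SE, was 0.47 ± 0.13 (adjusted p = 0.00461, or 0.4 with 16 libraries). Rps24 (chromosome 14, 24490681 to 24496146, plus strand), which takes part in small-subunit maturation and is mutated in some human cases of Diamond-Blackfan anaemia, had 214, 239, 273 and 278 CPM in dropout LPS libraries 1 to 4, 224, 245, 291 and 259.5 CPM in control LPS libraries, 175, 190.4, 199 and 1399 CPM in dropout untreated libraries and 187, 185, 188 and 203 CPM in control untreated libraries. Its control LPS and control untreated values did not overlap, and it stood at 0.42 ± 0.09 (adjusted p = 0.000958, or 0.509 with 16 libraries). Rps20, a protein of the small-subunit head, stood at 0.41 ± 0.11 (adjusted p = 0.00316, or 0.375 with 16 libraries). Rps27, whose promoter is shown above, stood at 0.38 ± 0.12 (adjusted p = 0.0116, or 0.416 with 16 libraries).

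Rps6 (chromosome 4, 86854660 to 86857412, minus strand), the substrate of the S6 kinases below mTORC1, had 136, 175, 177 and 176 CPM in dropout LPS libraries 1 to 4, 140.2, 174, 184 and 174 CPM in control LPS libraries, 102, 148, 145 and 365 CPM in dropout untreated libraries and 109, 136, 139 and 137 CPM in control untreated libraries. In both media each LPS library exceeded the untreated library of its own number apart from dropout library 4, and the fold change with serine was 0.37 ± 0.13 (adjusted p = 0.0189, or 0.281 with 16 libraries). Rpsa, the small-subunit protein also known as the laminin receptor, had 203, 271, 278 and 298 CPM in dropout LPS libraries 1 to 4, 201, 263, 277 and 281 CPM in control LPS libraries, 185, 265, 262 and 964 CPM in dropout untreated libraries and 191, 276, 270.3 and 253 CPM in control untreated libraries. Its LPS and untreated values overlapped, and the fold change with serine was 0.04 ± 0.15 with a 95% interval of -0.28 to 0.37 (adjusted p = 0.814, or 0.929 with 16 libraries). Without control untreated library 1 or control LPS library 4 its sign turned, to -0.06 and to just below 0.

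In the large subunit, which holds the peptidyl transferase centre, 15 of 48 were higher with 15 libraries and 2 with 16, with a median of 0.24. Of all genes tested 33.1% were called higher with 15 libraries and 27.6% with 16. Rpl24 (chromosome 16, 55966275 to 55971435, plus strand), a protein of the bridge between the subunits, had 4.57, 6.24, 5.61 and 4.48 CPM in dropout LPS libraries 1 to 4, 3.87, 6.22, 6.78 and 5.24 CPM in control LPS libraries, 1.99, 2.87, 2.82 and 11.1 CPM in dropout untreated libraries and 1.92, 2.76, 3.14 and 1.25 CPM in control untreated libraries. Its control LPS values all lay above its control untreated values, at 1.26 ± 0.43 with 16 libraries and 1.26 ± 0.26 with 15 (adjusted p = 0.0199 and 0.000416). Rpl27 (chromosome 11, 101442298 to 101445529, plus strand) had 74.6, 90.3, 104 and 84.8 CPM in dropout LPS libraries 1 to 4, 81.1, 88.6, 106 and 102 CPM in control LPS libraries, 58.7, 73.4, 73.5 and 111 CPM in dropout untreated libraries and 62.5, 72.2, 73.2 and 68.3 CPM in control untreated libraries. The control groups did not overlap here either, and the fold change was 0.45 ± 0.17 with 16 libraries and 0.45 ± 0.11 with 15 (adjusted p = 0.0299 and 0.00217). On total counts with 16 libraries neither passed, with Rpl24 at 0.65 and Rpl27 at -0.17 (adjusted p = 0.149 and 0.266). Rpl19, another bridge protein, stood at 0.38 ± 0.12 (adjusted p = 0.00799, or 0.347 with 16 libraries). Rpl3, close to the peptidyl transferase centre, had 187 to 297 CPM in dropout LPS libraries, 169 to 298 CPM in control LPS libraries, 191 to 269 CPM in dropout untreated libraries 1 to 3 and 697 CPM in the fourth, and 198 to 269.9 CPM in control untreated libraries. Those ranges overlapped, and it stood at 0.04 ± 0.19 with an interval of -0.35 to 0.44 (adjusted p = 0.856, or 0.921 with 16 libraries), and at -0.05 without control untreated library 1 and -0.04 without control LPS library 3.

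The stalk proteins, which bring elongation factors to the ribosome, had 2 of 3 members past the threshold with serine on the TMM scale in the fit of 15 libraries and 0 of 3 with 16. All genes called higher made up 33.1% and 27.6% in those fits. Rplp0 (chromosome 5, 115559467 to 115563727, plus strand), the scaffold of the stalk and the member with the highest mean CPM in control untreated cells, had 690.3, 837, 786 and 836 CPM in dropout LPS libraries 1 to 4, 661, 799, 852 and 827 CPM in control LPS libraries, 519.7, 660.1, 631 and 1264 CPM in dropout untreated libraries and 523, 674, 655 and 669 CPM in control untreated libraries. Control LPS libraries 2 to 4 lay above all control untreated libraries and control LPS library 1 did not, and the fold change with serine was 0.32 ± 0.11 (adjusted p = 0.0183, or 0.22 with 16 libraries, and -0.30 on total counts). Rplp2 and Rplp1, the proteins that dimerise on it, stood at 0.31 ± 0.12 and 0.23 ± 0.12 (adjusted p = 0.0361 and 0.0997, or 0.632 and 0.702 with 16 libraries). Of the pair that carries the 5S ribosomal RNA and can bind Mdm2, Rpl5 stood at 0.31 ± 0.12 (adjusted p = 0.0352, or 0.46) and Rpl11 at 0.17 ± 0.11 (adjusted p = 0.184, or 0.693), the second value with 16 libraries in each case.

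The paralogs had 1 of 3 members past the threshold with serine in the fit of 15 libraries and 0 of 3 with 16. The same fits called 33.1% and 27.6% of all genes higher. Rpl7l1 (chromosome 17, 46773907 to 46782656, minus strand), a paralog of the large-subunit gene Rpl7, had 104, 96.6, 80.4 and 85.0 CPM in dropout LPS libraries 1 to 4, 99.6, 94.1, 96.0 and 97.0 CPM in control LPS libraries, 103, 88.4, 95.8 and 107 CPM in dropout untreated libraries and 107, 98.2, 89.5 and 103 CPM in control untreated libraries. Its 4 groups overlapped, and it was the one member with a negative fold change on the TMM scale in both media without library 4, -0.07 ± 0.09 without serine and -0.04 ± 0.09 with it (adjusted p = 0.553 and 0.676, or 0.407 and 0.766 with 16 libraries). Rps27l, the paralog of Rps27, had 54.2, 55.5, 53.8 and 58.1 CPM in dropout LPS libraries 1 to 4, 57.8, 61.5, 59.5 and 57.1 CPM in control LPS libraries, 52.8, 52.4, 47.1 and 98.8 CPM in dropout untreated libraries and 51.9, 51.5, 46.9 and 48.0 CPM in control untreated libraries. It rose with serine in the fit of 15 libraries by 0.25 ± 0.07, with control LPS values all above control untreated ones (adjusted p = 0.00331, or 0.242 with 16 libraries), while total counts gave -0.37 (adjusted p = 0.0298 in the edgeR test). Without serine it stood at 0.12 ± 0.07 (adjusted p = 0.136, or 0.443 at -0.16 with 16 libraries). Rpl22, an RNA-binding protein of the large subunit, and its paralog Rpl22l1 stood at 0.12 ± 0.10 and 0.21 ± 0.15 with serine (adjusted p = 0.302 and 0.232, or 0.821 and 0.628 with 16 libraries).

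LPS in medium without serine gave opposite signs with and without library 4, which is 1 of the 4 untreated libraries compared. With all 16 libraries 0 members rose and 3 fell, Rpl37a, Rpl36a and Rpl41, which is 3.75% of members beside 27.1% of genes called higher and 29.7% lower. The edgeR test had 0 members higher at an unadjusted p under 0.05, beside 6780 of 11004 genes in either direction. DESeq2 called 0 members, but it gave no adjusted p for Rpl37a, Rpl36a and Rpl41, so those 3 could not be called there. Their DESeq2 log2 fold changes were -1.594, -1.545 and -1.387. The member median was -0.35, against -0.12 for all genes. Without library 4, 36 members (45%) were higher and 0 lower, beside 31.3% and 32.1% of all genes, and the member median was 0.31 against -0.05. The replicate block gave 3 higher and 0 lower (29.4% and 31.6% of genes), or 70 higher (87.5%) and 0 lower without library 4 (35% and 35.8%). On total counts 77 were lower, and 62 without library 4 (59.7% and 65.4% of genes), so that the higher direction rests on TMM scaling. Among replicate numbers 1 to 3 the LPS library was higher for 77 members in all 3 pairs (38.8% of genes), and on total counts lower for 78 (71.4% of genes). All dropout LPS libraries lay above untreated libraries 1 to 3 for 12 of 80 members on the TMM scale (30.5% of genes), and for 0 with library 4 (25.3%). On total counts they lay below for 30 members (62.7% of genes), and for 29 with library 4 (43.5%). The 3 lower calls became 1 without any single control library, 18, 7 and 6 without dropout untreated library 1, 2 or 3, and 0 without dropout untreated library 4 or any dropout LPS library. The 0 higher calls became 36 without dropout untreated library 4 and 1 without dropout LPS library 1.

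Rpl37a (chromosome 1, 72711260 to 72713809, plus strand), a zinc-binding protein of the large subunit, shows the turn. It had 154, 165, 176 and 197 CPM in dropout LPS libraries 1 to 4, 144, 159, 191 and 196 CPM in control LPS libraries, 121, 133, 155 and 1637 CPM in dropout untreated libraries and 119.7, 142, 153 and 151 CPM in control untreated libraries. Untreated library 4 stood at 1637 CPM against at most 155 CPM in the other 3 of its group, and each dropout LPS library but the first lay above untreated libraries 1 to 3. The LPS fold change was -1.56 ± 0.63 with library 4 (adjusted p = 0.0447) and 0.34 ± 0.13 without it (adjusted p = 0.0263). Rpl36a, an X-linked gene for a protein near the exit site for tRNA, had 52.8 to 73.7 CPM in dropout LPS libraries, 56.7 to 83.3 CPM in control LPS libraries, 48.8 to 66.4 CPM in dropout untreated libraries 1 to 3 and 583 CPM in the fourth, and 53.0 to 67.4 CPM in control untreated libraries. It stood at -1.50 ± 0.59 with library 4 and 0.17 ± 0.14 without (adjusted p = 0.0398 and 0.308). Rpl41, which encodes one of the smallest proteins known in mammals, had 171 to 216 CPM in dropout LPS libraries, 178 to 294 CPM in control LPS libraries, 144 to 201 CPM in dropout untreated libraries 1 to 3 and 1516 CPM in the fourth, and 161 to 181 CPM in control untreated libraries. It stood at -1.35 ± 0.55 and 0.19 ± 0.15 (adjusted p = 0.0469 and 0.268). With the replicate block on 16 libraries none of the 3 passed, at -0.86 for Rpl37a, -0.94 for Rpl36a and -0.85 for Rpl41 (adjusted p = 0.205, 0.143 and 0.172).

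Among the larger LPS changes without serine past the threshold, once library 4 was left out, were those of Rpl24 and 6 further members. Rpl24 stood at 1.04 ± 0.28 (adjusted p = 0.00345), with all 4 dropout LPS libraries above untreated libraries 1 to 3 and below library 4. With library 4 Rpl24 did not pass, since 0 members were called higher, and the highest fold change of any member there was 0.39. Rps20, Rps9, Rps27 and Rps24 stood at 0.45 ± 0.12, 0.45 ± 0.14, 0.44 ± 0.13 and 0.42 ± 0.10, with adjusted p between 0.00204 and 0.0114. Rps14, of the decoding platform, and Rpl35a, whose promoter is shown above, stood at 0.42 ± 0.16 and 0.41 ± 0.11 (adjusted p = 0.0289 and 0.00477). With library 4 those 6 lay between -0.96 and -0.17, and none passed. Rps6 stood at 0.33 ± 0.14 and Rplp0 at 0.38 ± 0.12 without library 4 (adjusted p = 0.0463 and 0.0102), and at -0.19 ± 0.28 and 0.04 ± 0.21 with it (adjusted p = 0.58 and 0.897). Rpsa, Rpl3, Rpl22 and Rpl22l1 did not pass in either fit, at 0.15 ± 0.17, 0.13 ± 0.20, 0.26 ± 0.11 and 0.29 ± 0.17 without library 4 and -0.67 ± 0.37, -0.42 ± 0.31, -0.74 ± 0.41 and -0.36 ± 0.35 with it. With the replicate block and without library 4, Rpl22 and Rpl22l1 did pass without serine, at 0.22 and 0.26 (adjusted p = 0.00356 and 0.0289), and Rpl22l1 passed with serine, at 0.22 (adjusted p = 0.0442).

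By role, without library 4, 15 of 32 small-subunit and 21 of 48 large-subunit members were higher without serine on the TMM scale, with medians of 0.32 and 0.29 (with library 4, 0 of 32 and 0 of 48, at -0.42 and -0.32). All genes higher made up 31.3% without library 4 and 27.1% with it. Without library 4 all 3 stalk genes passed, at a median of 0.36, and 0 of 3 paralogs, at 0.12. With it 0 of 3 passed in both groups, at medians of -0.85 and -0.16. Of the 4 X-linked members tested, with a median of 0.23 without library 4 and -0.53 with it, Rpl36a was lower with library 4 and 1 passed without it, Rpl39, at 0.36 ± 0.15 (adjusted p = 0.0412, or 0.125 at -0.92 with library 4). It was named after its values were seen.

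The LPS comparisons in the 2 media share no library. Without library 4 their fold changes had a Pearson r of 0.878 and a Spearman rho of 0.693 across 80 members (r 0.763 without Rpl24), a description over genes within the same libraries. On the TMM scale 79 members were positive in both media. Of those past the threshold 23 were called higher in both, 13 without serine only and 8 with serine only. Of all genes 31.3% were called higher without serine and 33.1% with it in this fit. How many of all genes were positive or called in both media was not counted, so these counts do not set the members apart. With library 4 the Pearson r was 0.102 and the Spearman rho -0.073, 15 members were positive in both media, and of those past the threshold 0 were shared, 3 were called lower without serine only and 2 higher with serine only. The difference between the media was itself tested, as the contrast between the withdrawals given below, and 0 members passed.

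**Figure D4:**
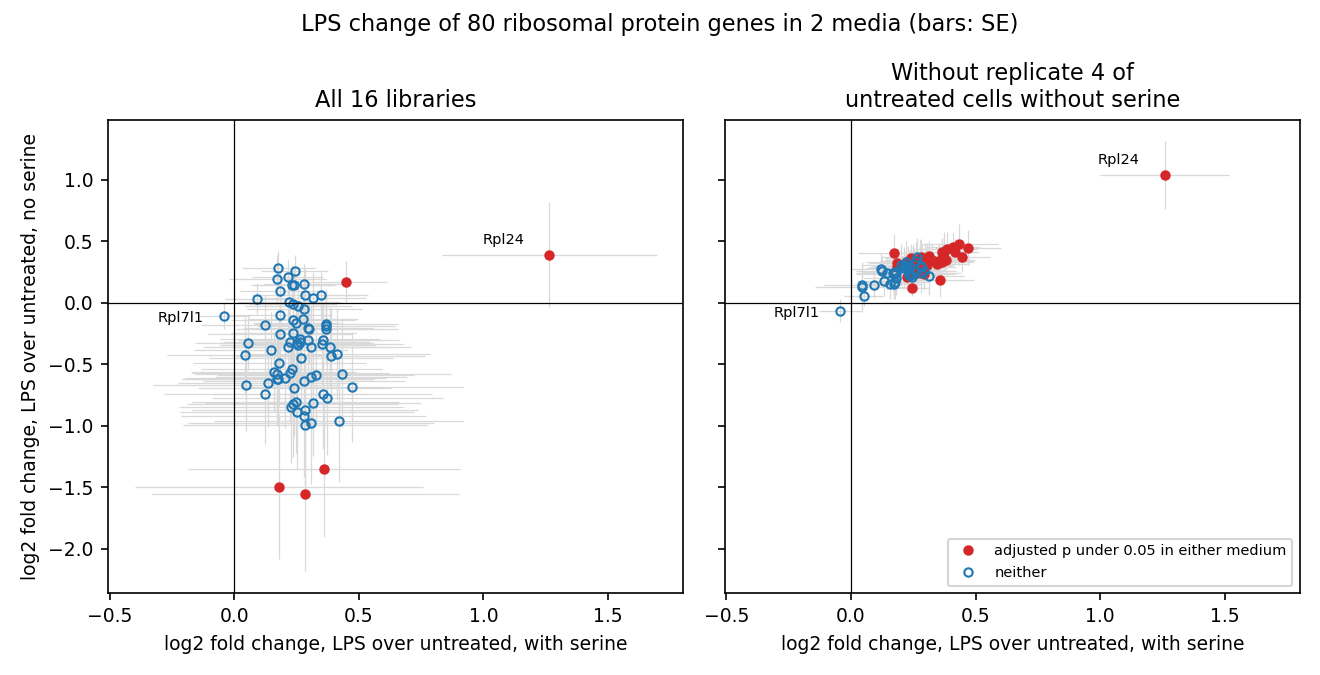
Log2 fold change of each member with LPS over untreated in medium without serine (y axis) against medium with serine (x axis), for 16 libraries (left) and without dropout untreated library 4 (right), with SE bars on the TMM scale. Red points passed in either medium. With library 4 most points lie below 0 on the y axis, at a median of -0.35, and without it 79 of 80 are positive on both axes, while on total counts the medians are -0.327 without serine and -0.365 with it.

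Serine withdrawal in untreated cells changed no member past the threshold. With 16 libraries 0 of 80 members were called (0% of 11004 genes), and 27 were at an unadjusted p under 0.05, all higher without serine. Of the 11004 genes 548 were at that unadjusted p in either direction. DESeq2 also called 0 members, with 15 at an unadjusted p under 0.05, a count not set beside all genes here. The median was 0.61 against 0.01 for all genes. Without library 4, 0 were called (0% of 11107 genes), 0 members were at an unadjusted p under 0.05 with either tool, and the median was -0.04, with fold changes from -0.12 to 0.14. In the edgeR test 452 of the 11107 genes were at that unadjusted p. The replicate block gave 0 calls too (0.0818% of genes higher and 0% lower, or 0.63% and 0.081% without library 4), with medians of 0.47 and, without library 4, -0.01. Rpl37a stood at 1.85 ± 0.63 with library 4 (adjusted p = 0.816) and at -0.05 ± 0.13 without it, with a 95% interval of -0.32 to 0.21. Rpl41 and Rpl36a stood at 1.55 ± 0.56 and 1.58 ± 0.59 with it, and at 0.01 ± 0.14 and -0.09 ± 0.14 without it. Rps24, Rpl36 and Rps21 stood at 1.36 ± 0.51, 1.12 ± 0.44 and 1.25 ± 0.50, and at -0.02 ± 0.10, 0.03 ± 0.13 and -0.04 ± 0.15. Over all members the 95% intervals without library 4 lay within -0.47 and 0.75.

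Serine withdrawal under LPS, a comparison that does not use library 4, changed no member past the threshold. With 16 libraries 0 of 80 were called higher or lower (0.0545% and 0.00909% of genes), and 0 were at an unadjusted p under 0.05 (676 of 11004 genes). With 15 libraries 0 were called (1.01% and 0.396% of genes), and 0 were at an unadjusted p under 0.05 (1458 of 11107 genes). DESeq2 called 0 in both. The replicate block without library 4 called 0 members, beside 4.98% and 3.32% of genes. Member fold changes had a median of 0 and ran from -0.16 to 0.19. With 16 libraries the smallest unadjusted p among members belonged to Rpl23a, which lies at the peptide exit and docks the signal recognition particle. It had 27.9, 40.9, 37.0 and 35.1 CPM in dropout LPS libraries 1 to 4 and 25.9, 33.0, 36.4 and 28.2 CPM in control LPS libraries, which overlap, a fold change of 0.19 ± 0.15 with an interval of -0.12 to 0.50 (adjusted p = 0.666, or 1 with 16 libraries). Rpl7l1, Rpl27, Rps27l, Rpl4 and Rpl29 followed, at -0.08 ± 0.09, -0.09 ± 0.11, -0.09 ± 0.07, 0.07 ± 0.11 and 0.06 ± 0.11. In the fit of 15 libraries the 95% intervals of the 80 members lay within -0.60 and 0.50, so changes of the size of 2-fold were outside them. This holds for that fit only. The median SE of a member was 0.122 there and 0.324 with 16 libraries, where the intervals are wider.

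**Figure D5:**
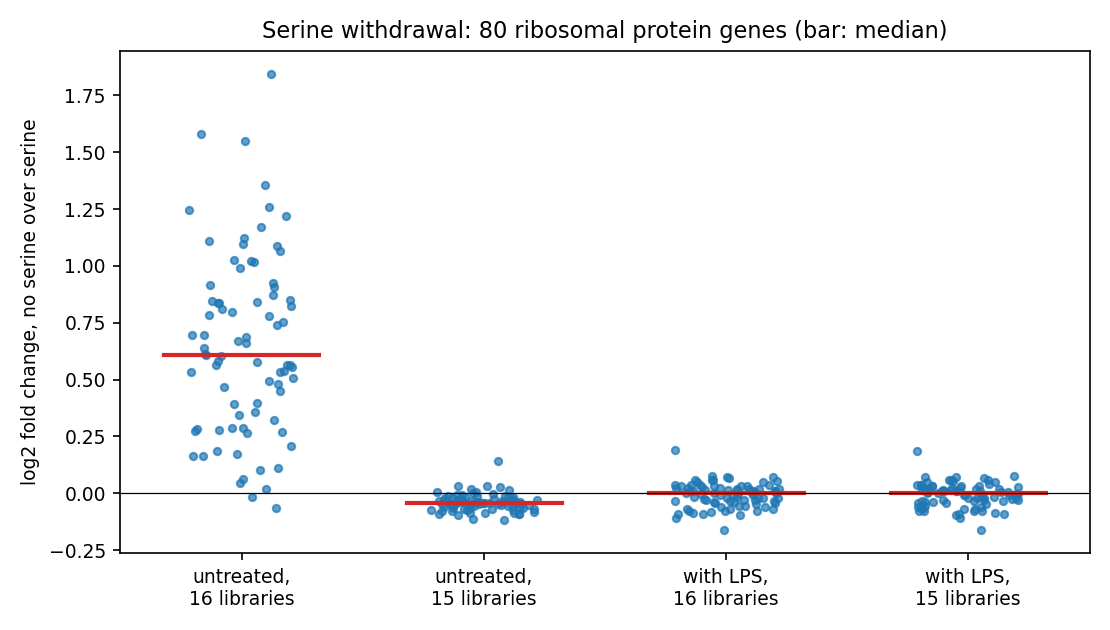
Log2 fold change of each member without serine over with serine, in untreated cells and under LPS, with all 16 libraries and with 15. Red bars are medians. The spread in untreated cells, with a median of 0.61, shrinks to a median of -0.04 without dropout untreated library 4, and under LPS the medians are 0.

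The difference between the withdrawals, equal to the difference between the LPS changes without and with serine, also had 0 members called with 16 or 15 libraries (0% of genes in both), and with the replicate block without library 4 (0.036% of genes in each direction). With 16 libraries 1 member was at an unadjusted p under 0.05 (253 of 11004 genes), and DESeq2 called 0. The median was -0.63, and 0.04 without library 4. Rpl41 stood at -1.71 ± 0.78 with library 4 (adjusted p = 0.95) and -0.17 ± 0.20 without it. Rpl37a, Rpl36a, Rps24, Rps21 and Rpl38, the last known in mouse for its part in patterning the axial skeleton, stood at -1.84 ± 0.88, -1.67 ± 0.82, -1.38 ± 0.71, -1.28 ± 0.69 and -1.13 ± 0.62 with library 4. Without it they stood at 0.06 ± 0.17, -0.01 ± 0.19, 0 ± 0.14, 0.01 ± 0.21 and -0.10 ± 0.21.

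Related gene lists were read in the same fits. Without library 4, 13 of 76 mitochondrial ribosomal protein genes were higher and 25 lower with LPS in medium without serine (median -0.14), and 14 and 24 in complete medium (-0.07). With library 4 the counts were 2 and 31 without serine (median -0.41), and 6 and 15 with it (-0.07). Of all genes 31.3% were higher and 32.1% lower without serine and 33.1% and 33.9% with it in the fit of 15 libraries, or 27.1% and 29.7%, and 27.6% and 28.2%, with 16. Of 14 translation factors with oligopyrimidine mRNAs 6 were higher and 1 lower without serine, and 5 and 1 with it (1 and 1, and 2 and 1, with 16 libraries). Among them Pabpc1, the poly(A)-binding protein, rose by 0.76 ± 0.10 without serine and 0.65 ± 0.09 with it, and Eif4b, an initiation factor, fell by 0.42 and 0.65 on the log2 scale in the same order (adjusted p of both at most 0.000473 with 15 libraries, edgeR). With 16 libraries Pabpc1 stood at 0.77 and 0.65 and Eif4b at -0.34 and -0.65, and both passed in both media (highest adjusted p 0.0162). Among 32 ribosome biogenesis genes 7 were higher and 10 lower without serine and 9 and 11 with it (4 and 8, and 6 and 6, with 16 libraries), among them Rrs1 at 1.15 ± 0.22 and 1.55 ± 0.20 and the RNA polymerase I subunit gene Polr1b at -1.75 ± 0.19 and -1.20 ± 0.17 (adjusted p at most 0.000267, edgeR, 15 libraries). With 16 libraries they stood at 1.12 and 1.55 and at -1.52 and -1.21 (adjusted p at most 0.00233). Of 10 regulators 3 were higher and 2 lower without serine and 3 and 3 with it (2 and 2, and 2 and 1, with 16 libraries). Larp1 rose by 2.32 ± 0.09 and 2.36 ± 0.08, Max, the partner of Myc, by 1.95 ± 0.14 and 2.06 ± 0.13, and Eif4ebp2, an inhibitor of cap-dependent translation, fell by 1.71 and 1.84 on the log2 scale (adjusted p at most 5.93e-09, edgeR, 15 libraries). With 16 libraries Larp1 stood at 2.21 and 2.36, Max at 1.79 and 2.06 and Eif4ebp2 at -1.51 and -1.84 (adjusted p at most 2.08e-05). Of the 4 ribosome genes outside the naming rule Fau stood at 0.34 ± 0.13 and 0.35 ± 0.12 and Rack1 at 0.37 ± 0.14 and 0.30 ± 0.13, past the threshold in both media with 15 libraries and in neither with 16, while Rpl36al did not pass. These list values are on the TMM scale, and total counts place all fold changes lower by the shift of the median given above. In the withdrawals 0 genes of these lists passed, apart from 1 regulator that was higher without serine under LPS in the fit of 15 libraries.

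In the authors' deposited tables, members were marked higher with LPS in 0 of 80 cases without serine and 12 of 81 with it, and lower in 0 cases in both. Those tables mark 19.1% and 17% of genes higher and lower without serine, and 27.9% and 27.5% with it. In the authors' deposited tables every marked gene has an adjusted p under 0.01, and no gene under it is unmarked. In the authors' deposited table for LPS without serine 3 members lie under 0.05 without a mark, Rpl36a at -1.50, Rpl37a at -1.54 and Rpl41 at -1.34 (adjusted p = 0.0276, 0.0342 and 0.0400). In that with serine 31 members lie under 0.05, all higher. The authors' deposited tables mark 0 members in either withdrawal, and their median member log2 fold changes are 0.66 in untreated cells and -0.34 for LPS without serine.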

How the data were processed

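RNA of 16 libraries of mouse bone marrow-derived macrophages, 4 in each of 4 groups, was read as whole-number counts per Ensembl gene, deposited by the authors. The submitters' processing notes name Trimmomatic 0.33, STAR, SAMtools, HTSeq, edgeR and the build mm10, with no role or order. Log2 fold changes, adjusted p-values and marks came from the authors' deposited tables and are printed only as theirs. A further 24 per-sample columns match no label and were not used.

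The main test was edgeR's (4.0.16, R 4.3.3) robust quasi-likelihood F test with TMM factors and edgeR's default filter on low counts, on all groups in one model. P-values were adjusted by Benjamini-Hochberg over all genes, with a threshold of 0.05. The common dispersion was 0.0438 (biological variation 20.9%) with 16 libraries and 0.02 (14.1%) with 15. DESeq2 1.42.0, total counts, median-of-ratios factors, no filter, the groups compared alone, a replicate block and leaving out each library were alternatives. Some were chosen after seeing the data: total counts, median-of-ratios factors and DESeq2, each without dropout untreated library 4. The procedure was tested on simulated counts with 200 changed genes.

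Replicate numbers pair the samples by their values: libraries of the same number had deviations correlated at 0.125 to 0.66 over 16 pairs, all above the bound of 0.1, and those of different numbers at -0.373 to 0.141 over 48. Counts differed beyond sampling noise in each of the 120 library pairs (chi-square over its degrees of freedom at least 2.04, genes averaging 10 or more counts). Totals ran from 2871477 to 10043362 counts, and intervals cover counting error only. Coordinates are GENCODE M21 on mm10. Lengths are of the transcript with the longest coding part.

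The members and lists were chosen with earlier results of these data known. Named members in the LPS comparisons were the 8 highest and the 8 lowest fold changes past the threshold and a panel of Rps6, Rpsa, Rplp0, Rpl3, Rpl22, Rpl22l1, Rps27 and Rps27l. Outside that rule Rpl7l1, Rplp1, Rplp2, Rpl5, Rpl11 and Rpl39 are also reported in the LPS comparisons. In the withdrawals and their difference they were the 6 smallest unadjusted p-values. Some genes chosen in this way are not reported here.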

Additional observations from a re-analysis of the deposited data

Results flagged for a closer look

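A library was taken as far from its group where its gap to the nearest of the other 3, divided by the range of the group, passed the 95% critical value of Dixon's test for 4 values, which chance gives in about 1 of 20 groups. Of 108 groups examined 29 passed, and in 20 of them the far library was dropout untreated library 4. These groups are readings of the same 16 libraries, with correlated members, so they are not separate tests. Rpl37a, Rpl36a, Rpl41, Rpl36, Rps21 and Rpl38 were named only through fits that include that library, so their flags for it follow in part from that choice. The share of counts held by members in dropout untreated library 4 was 5.47%. Its levels in CPM were Rpl24 11.1, Rps9 2035, Rps24 1399, Rps20 851, Rps27 561, Rpl19 943, Rpsa 964, Rpl3 697, Rpl22 557, Rpl22l1 58.4, Rps27l 98.8, Rpl37a 1637, Rpl36a 583, Rpl41 1516, Rps14 1822, Rpl35a 302, Rpl36 354, Rps21 968 and Rpl38 255, each the highest of its group.

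In the other groups replicate 1 was the far library in all cases but one, and it was the lowest of its group. In dropout LPS cells replicate 1 had 289 CPM of Rpl19, 136 CPM of Rps6 and 187 CPM of Rpl3. In control LPS cells replicate 1 had 169 CPM of Rpl3. In control untreated cells replicate 1 had a member share of 1.60%, and 109 CPM of Rps6, 523 CPM of Rplp0 and 198 CPM of Rpl3. The exception was control untreated library 4, the highest of its group, with 203 CPM of Rps24.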

How the results depend on the processing

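Scaling decided the sign of the LPS results. On total counts with 16 libraries the LPS comparison with serine had 0 members higher and 16 lower at a median log2 fold change of -0.365, with values of Rpl27 -0.172, Rps9 -0.15, Rps24 -0.201, Rps20 -0.207, Rps27 -0.235, Rpl19 -0.237, Rps6 -0.25, Rpsa -0.572, Rplp0 -0.302, Rpl3 -0.575, Rpl22 -0.493, Rpl22l1 -0.398 and Rps27l -0.367. Of all genes 15.1% were called higher and 58.2% lower in that comparison. Without serine 77 members were lower (59.7% of all genes), with Rpl24 -0.147 and Rplp0 -0.489. Total counts without dropout untreated library 4 gave 1 higher and 69 lower with serine (17.2% and 65.4% of all genes), at a median of -0.365. Without serine they gave 62 lower (65.4% of all genes). The change of sign follows from the shift of the median of all genes, and which scale is nearer to RNA per cell cannot be told apart here.

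Other choices moved the counts of calls on the TMM scale. Percentages in this paragraph are of all genes called in the same direction. With serine the count of members higher, 2 (27.6%), became 6 with the replicate block (29.7%). It was 31 in a fit of the 2 groups alone (33.1%) and 73 with the block and without library 4 (36.5%). Without library 4 it was 33 under median-of-ratios factors (33.7%) and 34 under DESeq2 (33.5%). Without a filter on low counts the median was 0.33. Without serine the 3 members lower (29.7%) became 0 under DESeq2 (30%) and without a filter. They also became 0 in a fit of the 2 groups alone (23.2%) and with the replicate block (31.6%), which gave 3 higher (29.4%). DESeq2 gave no adjusted p for the 3 members lower with 16 libraries, so its 0 is no test of them. Without library 4 the count lower was 0 and the count higher 70 with the block (35%), 41 under median-of-ratios factors (32%) and 42 under DESeq2 (31.9%). In that blocked fit the changed signs were Rpl37a 0.29, Rpl36a 0.131, Rpl41 0.185, Rps20 0.426, Rps9 0.384, Rps27 0.397, Rps24 0.38, Rps14 0.364, Rpl35a 0.382, Rps6 0.316, Rpsa 0.107, Rpl3 0.071, Rpl22 0.221, Rpl22l1 0.259 and Rps27l 0.126. In the same fit Rpl37a and Rpl36a stood at -0.001 and -0.053 in untreated cells without serine over with serine, and Rpl37a at 0.011 for the difference between the withdrawals. The block changed no count of calls in the withdrawals or their difference. The cause of these moves was not tested.

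Leaving out 1 library at a time gave these ranges. With serine the LPS counts higher ran from 0 to 31 and the median from 0.195 to 0.333, with Rpl3 from -0.052 to 0.2 and Rpsa from -0.061 to 0.148. Without serine the counts ran from 0 to 36 higher and 0 to 18 lower, the median from -0.554 to 0.308, and the named genes as follows: Rpl22 -0.991 to 0.255, Rpl22l1 -0.585 to 0.286, Rpl24 0.099 to 1.041, Rpl3 -0.631 to 0.128, Rpl35a -0.361 to 0.41, Rpl36a -1.817 to 0.17, Rpl37a -1.881 to 0.343, Rpl41 -1.661 to 0.189, Rplp0 -0.11 to 0.383, Rps14 -1.039 to 0.416, Rps20 -0.647 to 0.454, Rps24 -1.238 to 0.417, Rps27 -0.667 to 0.439, Rps27l -0.276 to 0.124, Rps6 -0.392 to 0.333, Rps9 -0.948 to 0.448, Rpsa -0.913 to 0.146. The high ends of these genes came without dropout untreated library 4. So did the counts of 31 and 36 higher, beside 33.1% and 31.3% of all genes. Shares of all genes are not given for the other fits that leave out 1 library. In the withdrawal in untreated cells the median ran from -0.042 to 0.83, Rpl37a from -0.055 to 2.17, Rpl36a from -0.089 to 1.899, Rps24 from -0.02 to 1.635 and Rps21 from -0.041 to 1.527. Under LPS the median ran from -0.08 to 0.062 and Rpl29 from -0.008 to 0.112. For the difference the median ran from -0.825 to 0.044, Rpl37a from -2.166 to 0.059 and Rps21 from -1.562 to 0.006. The members' share of counts ran from 1.3944 to 1.4991% in dropout LPS, 1.4092 to 1.53% in control LPS, 1.8085 to 3.1182% in dropout untreated and 1.8331 to 1.9528% in control untreated cells.

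With the 20 highest genes that are no members left out of the total, the shares were 1.64% in dropout LPS, 1.67% in control LPS and 2.21% in control untreated cells. Over all settings 965 values of single members kept their sign and side of the threshold, 62 changed sign, 46 newly passed and 48 no longer passed, while 354 summary values stayed and 57 moved. Library depth, the pooled spread that library 4 widens and the unknown number of animals limit what can be detected.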
